A study of Arabidopsis thaliana with 40 samples.

Results

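Translation initiation factors other than 10 named loci, mostly of the cap-binding complex and its helicase, were followed at the mRNA level in Arabidopsis thaliana seedlings. Members were nuclear loci whose annotation text in the deposited count tables names an initiation factor together with "eukaryotic" or "translation" and does not mention transcription, and 10 loci of the eIF4F, eIFiso4F, eIF4A and eIF4B group and the related cap-binding protein nCBP were left out. The rule used names only, no measured value, and found 58 loci, represented by 85 transcript models, among 33592 loci. Seedlings aged 9 days were taken whole after 3 h of darkness, with or without submergence during that time. Total mRNA and the RNA of heavy polysomes, which are mRNAs with many ribosomes, were sequenced from each. The genotypes with read counts were the wild type Col-0 and K48M, a line in the Col-0 background that overexpresses SnRK1.1 (KIN10), a catalytic subunit of the energy-sensing kinase SnRK1, with the K48M change. The labels give neither the promoter of this construct nor the number of lines behind it. For i4g1-2 and 4A-15, lines of a second experiment, only log2 folds deposited by the authors were used. Each of the 8 groups with read counts held 2 libraries, 1 from each of the library sets ST_FR (replicate 1) and LTF_GG (replicate 2). The series text calls these independent biological repeats. The p-values measure only the spread between these libraries.

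Initiation brings the small ribosomal subunit, the initiator tRNA and an mRNA together at a start codon. eIF2 with GTP delivers the initiator tRNA and eIF2B recharges eIF2 with GTP. eIF3, the largest factor, is a scaffold on the small subunit, eIF1 guards the accuracy of start codon choice, and eIF5 triggers GTP hydrolysis on eIF2. eIF5B is the GTPase that joins the large subunit, eIF6 keeps free large subunits apart, and eIF5A acts mainly in elongation and carries the modified residue hypusine. Plastids and mitochondria have bacterial-type factors IF2 and IF3 that are encoded in the nucleus. Protein synthesis is costly in energy, and polysomes of Arabidopsis are known to become fewer when oxygen is short.

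Gene reads ran from 3.749 M to 6.769 M per library, and members took 0.255% to 0.486% of them. The 4 nuclear ribosomal RNA genes matched in the tables took 0.604% to 28.9% of the reads, the highest share in the Col-0 polysome dark library of replicate 1. In 2 K48M total libraries of the LTF_GG set the titles and the column headers give opposite conditions, so both were left out and K48M total mRNA had 1 library per condition, assumed to vary like the other groups. ADH1, the alcohol dehydrogenase of ethanol fermentation, stood at 27.4 to 50.7 CPM (counts scaled to the library's TMM-adjusted size) in the 7 dark libraries and at 1370 to 2780 CPM in the 7 submerged ones. KIN10 ran from 27.0 to 37.7 CPM in Col-0 and from 241 to 1550 CPM in K48M. As a check of the labelled whole seedling, the sum of 4 green-tissue markers was 9010 to 31300 CPM, that of 4 root markers 101 to 264 CPM, and that of 3 seed storage markers at most 0.952 CPM. Green-tissue sums were 11100 to 25900 CPM in the dark and 9010 to 21800 CPM under submergence, and root sums 141 to 264 and 101 to 217 CPM. The part of these shifts in the results below was not tested.

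The 58 loci comprised 15 genes of eIF3, 7 of the eIF2 type, 3 of the eIF2B type, 4 of eIF1, 2 further genes with the SUI1 domain of eIF1 (AT5G11900, related to DENR, and AT1G71350, related to eIF2D), 5 of the eIF5B type, 2 of eIF5, 1 of eIF5A, 2 of eIF6, 5 of the eIF4 type, 5 organellar IF2 and IF3 genes and 7 others. The eIF4 type held EIF4A-III, the eIF4E family genes AT1G29550 and eIF4E3, the eIF4A-type pseudogene AT3G09375 and AT4G37020, whose best match is EIF4A-III. The 7 others included relatives of translation GTPases, AT1G18070 (similar to the release factor eRF3) and AT5G10630 (similar to the ribosome rescue factor HBS1). They also included AT1G73180, an eIF2A. After the filter on low counts 49 members were tested together with 19436 genes in all. The 9 members that did not pass had at most 7 reads in any library and at most 44 over the 16 libraries. They were EIF3C-2, the second eIF6 gene AT2G39820, eIF4E3, the eIF2-type genes AT3G07920, AT2G18720 and AT4G18330, the eIF4A-type pseudogene AT3G09375, AT5G57650 and AT2G27700, of which AT2G27700 had no read.

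Levels per length (RPKM, which is CPM after TMM scaling divided by the length in kilobases) in Col-0 total mRNA in the dark spanned 1270-fold among the tested members. ELF5A-2, the eIF5A gene of the set, stood at 989 and 620 RPKM in the 2 libraries. Next came the eIF1 gene AT5G54940 with 351 and 433 RPKM, another eIF1 gene, AT5G54760, with 140 and 171 RPKM, and EIF3K with 170 and 123 RPKM. Their order behind the leading pair was not fixed by these libraries, since EIF3G1 at 157 and 105 RPKM, AT4G27130 at 96.7 and 150 RPKM and TIF3H1 (eIF3h) at 135 and 113 RPKM overlapped them. The median of the 49 tested members was 23.3 RPKM, against 8.06 RPKM for all genes tested.

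Within most duplicated subunits a single gene carried most of the mRNA. EIF3C-1 made up 99.6% to 100% of the eIF3c mRNA per length over the 16 libraries, EIF3G1 93.5% to 99.2% of eIF3g, and emb1624 (AT3G55620) 99.4% to 100% of eIF6. AT1G76810 made up 71.2% to 91.4% of the mRNA of the 4 tested eIF5B genes, EIF3B-1 72.4% to 82.7% of eIF3b, and AT2G40290 77.5% to 88.7% of eIF2 alpha. The eIF3d pair AT4G20980 and AT5G44320 was closer, with AT4G20980 at 31.8% to 68.6%, and so was the eIF5 pair, with AT1G77840 at 37.1% to 66.6%. Reads matching several models, of the same locus or of close copies, were counted. For example, 15.6% of the reads of EIF3G1 (2 models) and 100% of those of EIF3G2 (1 model) were unique. Matches to close copies make these splits uncertain. Among the tested members this applies most to the eIF2B genes AT1G53880 and AT1G53900 and the eIF5 gene AT1G36730. None of their reads was unique to a model. For the other eIF5 gene, AT1G77840, 100% of the reads were unique.

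Few of these factors passed the test for a response to submergence (submerged over dark, edgeR's quasi-likelihood test with Benjamini-Hochberg adjustment, call at an adjusted p under 0.05). In Col-0 total mRNA 1 of the 49 tested members rose and 0 fell, while 12.0% of all genes tested were called, 7.44% higher and 4.59% lower. In K48M total mRNA 0 members were called, against 5.18% of all genes (3.34% higher, 1.84% lower). In Col-0 polysome RNA 1 rose and 0 fell, against 10.7% of all genes (6.33% higher, 4.37% lower). In K48M polysome RNA 1 rose and 1 fell, against 13.6% of all genes (7.58% higher, 6.04% lower). At an unadjusted p under 0.05 the shares were 6.12%, 4.08%, 10.2% and 8.16% of the members in the same order, and 25.6%, 19.5%, 24.5% and 27.7% of all genes. DESeq2 called 0 of the 49 in K48M total mRNA as well. The median log2 fold change of the members was −0.01 in Col-0 total mRNA, −0.05 in Col-0 polysome RNA and −0.08 in K48M polysome RNA, beside 0.01, −0.02 and −0.01 over all genes. In K48M total mRNA, with 1 library per condition, it was 0.18 beside 0.00, but it was −0.01 when the LTF_GG pair was added with the conditions of its headers.

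The intervals show how much change the libraries could hide. For 40 of the 49 members (81.6%) the 95% interval of the Col-0 total response lay within a log2 fold change of 1 in either direction, against 46.8% of all genes tested. The counts were 35 of 49 (71.4%) in Col-0 polysome RNA and in K48M polysome RNA, against 42.2% and 40.1% of all genes, and 21 of 49 (42.9%) in K48M total mRNA, against 21.1%. Absolute log2 fold changes under 0.5 were found for 85.7%, 69.4%, 89.8% and 85.7% of the members in total mRNA of Col-0 and of K48M and in polysome RNA of Col-0 and of K48M, against 62.6%, 53.3%, 60.9% and 58.2% of all genes. Members have higher levels than most genes tested, and folds of genes with more reads have less counting error, so these shares are not like for like. TMM scaling removes any shift shared by most mRNAs, and in whole seedlings fewer cells of a type and less RNA per cell cannot be told apart.

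**Figure D1:**
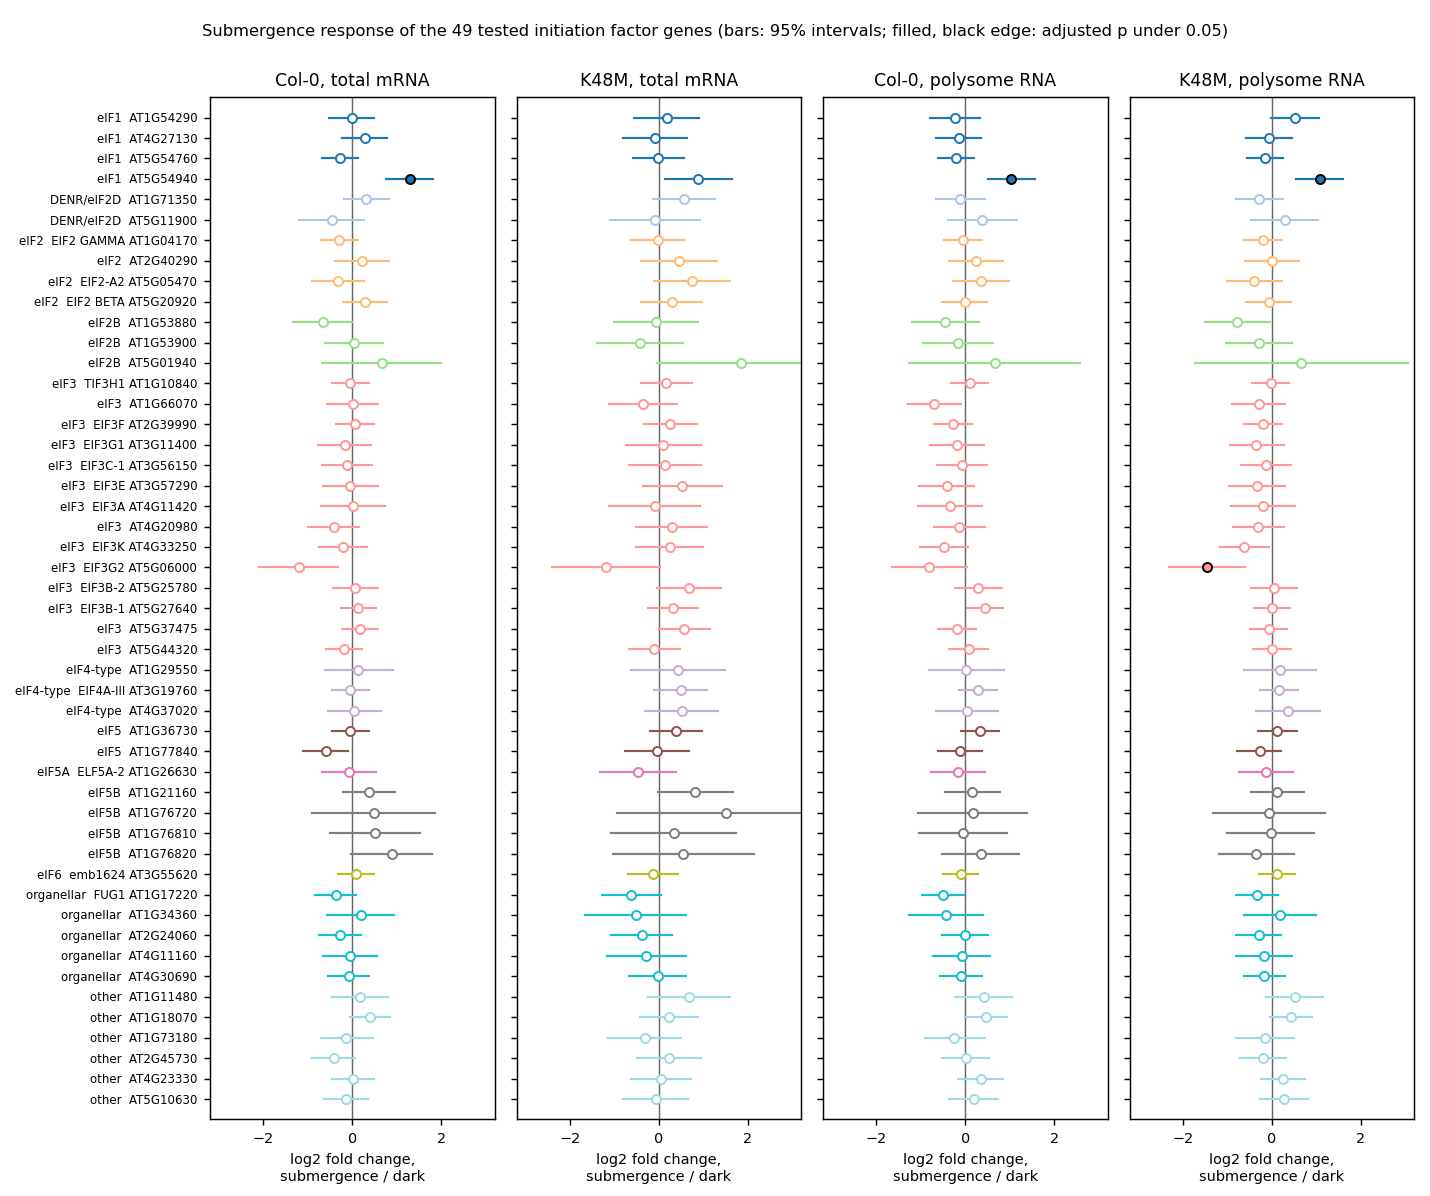
Log2 fold change of submergence over dark (x axis) for the 49 tested members (rows, grouped by factor) in Col-0 and K48M total mRNA and polysome RNA; points are edgeR estimates, bars 95% intervals drawn up to 3.2 in either direction, and filled points with a black edge have an adjusted p under 0.05. Most points lie near 0, and AT5G54940 (1.29, 1.03 and 1.07 where called) and EIF3G2 (−1.46 in K48M polysome RNA) are the filled ones.

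**Figure D2:**
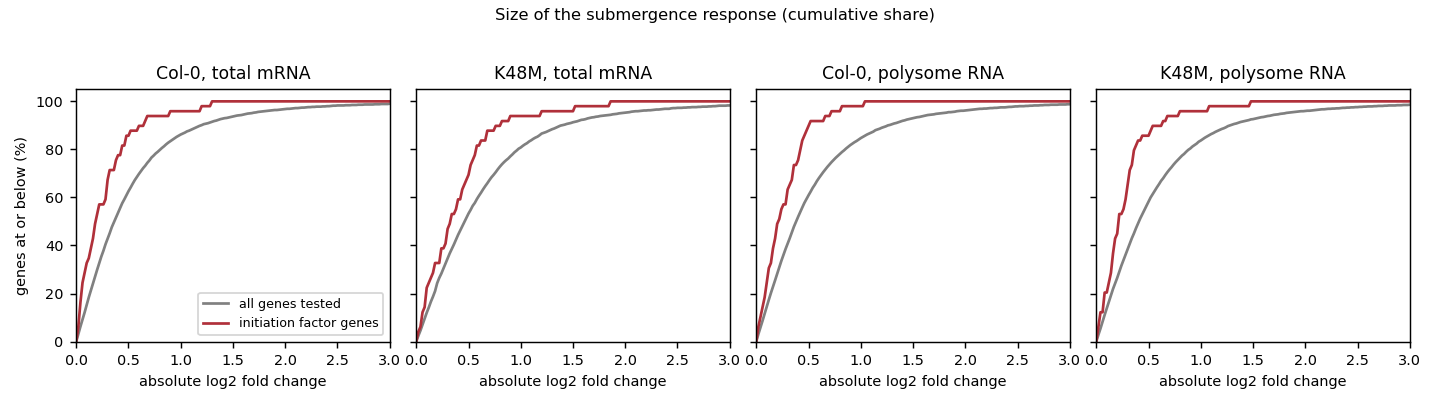
Cumulative share of genes (y axis, percent) with an absolute log2 response to submergence at or below the value on the x axis, for the 49 tested members (red) and all 19436 genes tested (grey), in the 4 combinations of genotype and fraction. At 0.5 the members stand at 85.7% and all genes at 62.6% in Col-0 total mRNA.

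The exception among the factors of start codon choice was AT5G54940, 1 of 4 genes of the eIF1 (SUI1) family. In Col-0 total mRNA it stood at 209 and 258 CPM in the dark and at 600 and 554 CPM under submergence. In Col-0 polysome RNA it stood at 350 and 337 CPM in the dark and at 786 and 632 CPM under submergence. Dark and submerged libraries did not overlap in either fraction. K48M polysome RNA held 442 and 265 CPM in the dark and 848 and 627 CPM under submergence, again without overlap, and the single K48M total libraries held 464 and 859 CPM. The 2 libraries of conflicting condition had 409 CPM where the header says dark and 608 CPM where it says submergence.

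The log2 fold change of AT5G54940, a rise, was 1.29 ± 0.25 (± gives the standard error throughout) in Col-0 total mRNA (adjusted p = 0.00401), 1.03 ± 0.25 in Col-0 polysome RNA (adjusted p = 0.0161) and 1.07 ± 0.25 in K48M polysome RNA (adjusted p = 0.0113). In K48M total mRNA the value was 0.89 ± 0.35 (adjusted p = 0.17). Submerged exceeded dark in 7 of 7 pairs of libraries from the same set, by 0.89 to 1.52 on the log2 scale after adding 0.5 CPM. Without the term for the library set the adjusted p-values of the 3 calls were 0.108, 0.228 and 0.194. With unique reads, 19.3% of this gene's reads, they were 0.063, 0.067 and 0.0176, with log2 fold changes of 1.05, 1.09 and 1.39.

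The other eIF1 genes did not pass the test in any of the 4 responses. AT5G54760 ran from 90.1 to 130 CPM in total mRNA of Col-0, with log2 responses of −0.28 ± 0.19 in Col-0 total mRNA and −0.16 ± 0.19 in K48M polysome RNA. For AT4G27130 the values were 0.29 ± 0.23 and −0.07 ± 0.24, and for AT1G54290, the lowest of the family, −0.01 ± 0.24 and 0.52 ± 0.25. AT5G54940 thereby made up 56.1% to 75.6% of the family's mRNA per length in the 7 dark libraries and 75.1% to 85.4% in the 7 submerged ones. Its relatives with a SUI1 domain, AT5G11900 and AT1G71350, had log2 responses between −0.46 and 0.57 in the 4 comparisons, none called.

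**Figure D3:**
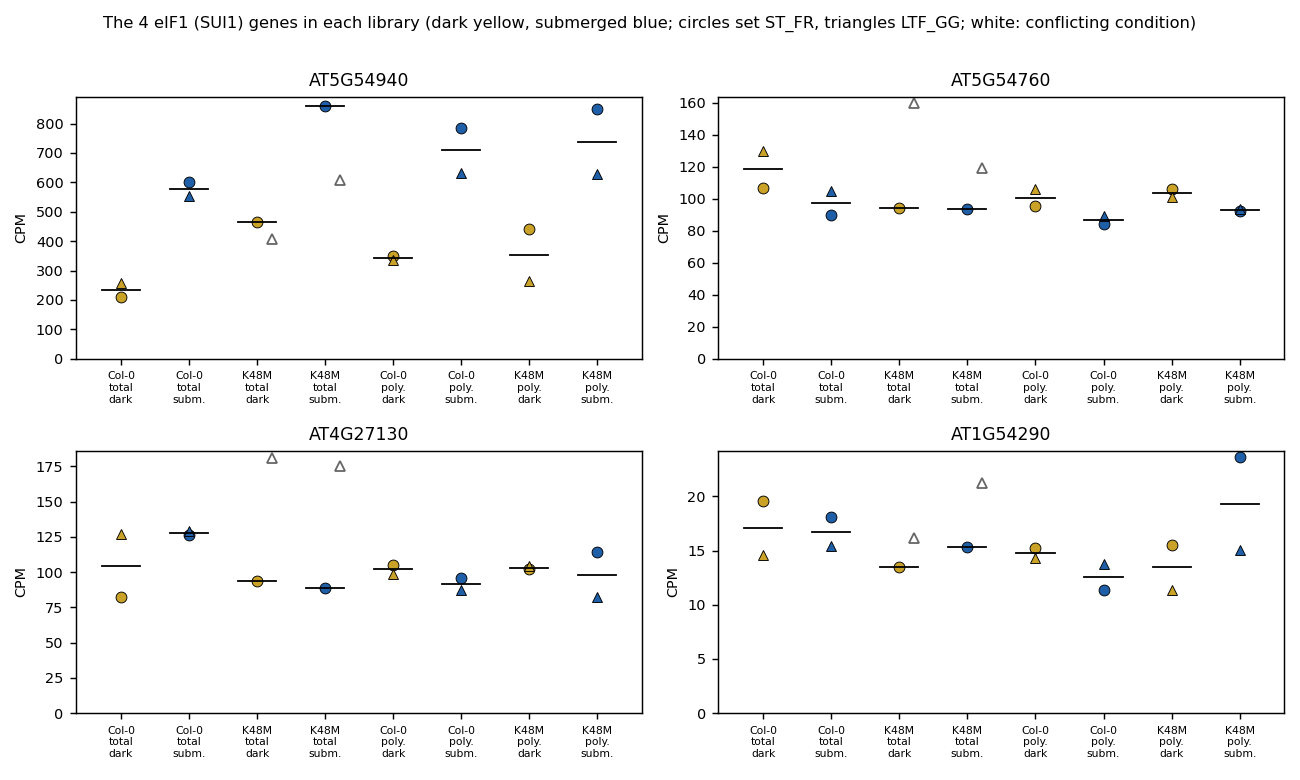
Level in CPM (y axis, from 0) of the 4 eIF1 genes in each library of the 8 groups (x axis); yellow is dark, blue is submergence, circles are set ST_FR, triangles set LTF_GG, black lines are group means and white triangles the libraries with conflicting conditions, placed by their headers. AT5G54940 is higher in submerged than in dark libraries in each combination of genotype and fraction, for example 600 and 554 against 209 and 258 CPM in Col-0 total mRNA.

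In eIF3 the minor g subunit gene EIF3G2 (AT5G06000) had the most negative responses. eIF3g is an RNA-binding subunit of the complex. EIF3G2 had 4.12 and 3.18 CPM in Col-0 total mRNA in the dark against 1.56 and 1.47 CPM under submergence, and 9.49 and 4.79 CPM in K48M polysome RNA in the dark against 3.65 and 1.51 CPM. Dark and submerged libraries did not overlap in either group. In Col-0 polysome RNA, with 7.62 and 4.09 CPM in the dark and 4.72 and 1.97 CPM under submergence, they overlapped.

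EIF3G2 fell by 1.46 ± 0.39 on the log2 scale in K48M polysome RNA (adjusted p = 0.0255). The values elsewhere were −1.20 ± 0.41 in Col-0 total mRNA (adjusted p = 0.0794), −1.19 ± 0.57 in K48M total mRNA (0.27) and −0.81 ± 0.39 in Col-0 polysome RNA (0.221). Submerged was below dark in 7 of 7 pairs within a set, by 0.64 to 1.40. The gene had 7 to 35 reads per library, and its call in K48M polysome RNA was lost under DESeq2 (adjusted p = 0.0795), without the set term (0.273), with the LTF_GG pair by its headers (0.0522) and without any of the 4 K48M polysome libraries (0.103 to 0.171). Its paralog EIF3G1, which ran from 84.3 to 217 CPM in total mRNA of Col-0, had log2 responses of −0.17 ± 0.28, 0.10 ± 0.39, −0.19 ± 0.28 and −0.35 ± 0.28 in the total mRNA of Col-0 and K48M and in the polysome RNA of Col-0 and K48M. The difference between the paralogs was not tested.

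**Figure D4:**
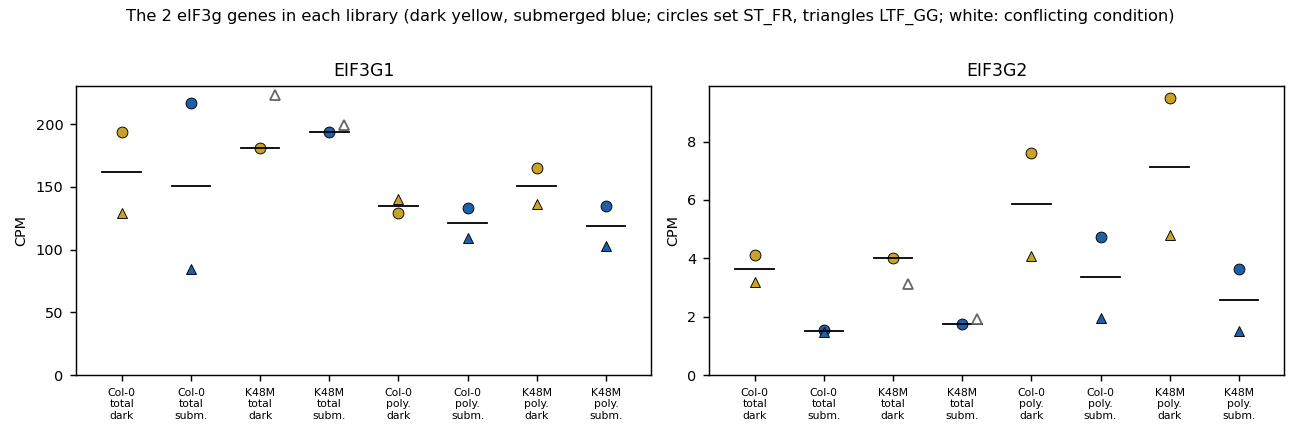
Level in CPM (y axis, from 0, scaled to each gene) of EIF3G1 and EIF3G2 in each library of the 8 groups (x axis), with colours and symbols for condition and set as for the eIF1 genes. EIF3G2 runs from 1.47 to 9.49 CPM, lower under submergence within each set, while EIF3G1 shows no such separation.

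The other 13 tested eIF3 genes ranged from −0.42 to 0.18 in the Col-0 total response and from −0.71 to 0.43 in the Col-0 polysome response, none called. The signs of the 14 tested eIF3 genes differed between the K48M fractions, but the polysome response less the total response was called for no member. In K48M polysome RNA 13 were negative, with a median of −0.20, where 9836 of all 19436 genes were negative and the median was −0.01. In K48M total mRNA, with 1 library per condition, 4 were negative and 10 positive, with a median of 0.20 against 0.00. The K48M total median over all tested members went to −0.01 with the LTF_GG pair added by its headers. Genes of the same libraries are not independent points. EIF3K had −0.62 ± 0.25 in K48M polysome RNA (adjusted p = 0.122). After EIF3G2, the largest value in Col-0 polysome RNA was that of the eIF3j gene AT1G66070, −0.71 ± 0.28 (adjusted p = 0.127). EIF3B-1 stood on the other side with 0.43 ± 0.19 (0.174).

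None of the 4 tested eIF2 genes or the 3 tested eIF2B-type genes was called in a response. EIF2 GAMMA (AT1G04170) was at 112 and 74.0 CPM in Col-0 total mRNA in the dark and 78.2 and 72.2 CPM under submergence, a log2 value of −0.29 ± 0.20. It was lower under submergence in 7 of 7 pairs, by at most 0.51. EIF2 BETA had 0.29 ± 0.23 and EIF2-A2 −0.32 ± 0.27 in the same comparison. AT1G53880 had −0.66 ± 0.31 in Col-0 total mRNA (adjusted p = 0.199) and −0.78 ± 0.34 in K48M polysome RNA (0.151), and its near copy AT1G53900 had 0.04 ± 0.31 and −0.29 ± 0.34. AT5G01940, an eIF2B family gene by its text, was higher under submergence in 7 of 7 pairs, but with 0 to 21 reads per library its log2 value of 1.85 ± 0.88 in K48M total mRNA was not called (adjusted p = 0.271).

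For the later steps, ELF5A-2 had 887 and 556 CPM in Col-0 total mRNA in the dark and 911 and 471 CPM under submergence, with more spread between the sets than between conditions (log2 −0.08 ± 0.28). eIF6 (emb1624) had 73.1 and 56.6 CPM against 79.3 and 58.4 CPM (0.08 ± 0.19). The eIF5 gene AT1G77840 went from 51.5 and 45.7 CPM to 27.7 and 35.2 CPM without overlap, but its log2 value of −0.60 ± 0.23 was not called (adjusted p = 0.117), and in K48M total mRNA the value was −0.04 ± 0.33. Its paralog AT1G36730, none of whose reads was unique to a model, had −0.04 ± 0.20 in Col-0 total mRNA. The 4 tested eIF5B genes had total mRNA responses from 0.33 to 1.52 and polysome responses from −0.35 to 0.34, of which 1 was negative in Col-0 and 3 in K48M, none called. The 2 libraries of Col-0 total submergence differed here, AT1G76810 having 50.1 CPM in replicate 1 and 120 CPM in replicate 2. The Col-0 total response of AT1G76820, 0.89 ± 0.43, was 0.11 (adjusted p = 0.916) without replicate 2 and 1.33 (0.0376) without replicate 1.

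Among the organellar factors FUG1 (AT1G17220), the plastid IF2, was lower under submergence in 7 of 7 pairs, by 0.14 to 0.78, with log2 responses of −0.37 ± 0.22, −0.62 ± 0.30, −0.51 ± 0.22 and −0.34 ± 0.22 in total mRNA of Col-0 and K48M and polysome RNA of Col-0 and K48M and adjusted p-values of 0.166 to 0.342. AT4G30690, an IF3 gene and the most abundant of this group at 52.5 CPM in Col-0 total mRNA in the dark, had −0.08 ± 0.21 in Col-0 total mRNA. EIF4A-III, a core component of the exon junction complex at 77.5 CPM in the same group, had −0.04 ± 0.20. The eRF3-like gene AT1G18070 was higher in 7 of 7 pairs, by 0.07 to 0.67, and also not called. In all, 3 of 49 members (6.12%) were higher and 6 (12.2%) lower in each of the 7 pairs, below the 17.8% and 15.5% of all genes tested that did so.

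No difference between the genotypes' responses was called. The K48M response less the Col-0 response was called for no member and for 0% of all genes tested in total mRNA and in polysome RNA. At an unadjusted p under 0.05 it was found for 2.04% and 0% of the members, against 2.60% and 1.31% of all genes, and DESeq2 called no member in either. For AT5G54940 the difference was −0.40 ± 0.42 in total mRNA, with an interval from −1.31 to 0.51, and 0.04 ± 0.35 in polysome RNA, with an interval from −0.71 to 0.78. The largest differences in polysome RNA were those of the eIF1 gene AT1G54290 (0.76 ± 0.36) and of EIF2-A2 (−0.75 ± 0.40), both with an adjusted p of 1. AT1G76820 (−0.70 ± 0.56), EIF3G2 (−0.65 ± 0.56) and the IF3 gene AT1G34360 (0.60 ± 0.54) followed. In total mRNA AT5G01940 (1.19 ± 1.1), EIF2-A2 (1.07 ± 0.48), AT1G76720 (1.04 ± 1.33), AT4G20980 (0.72 ± 0.46) and AT1G34360 (−0.71 ± 0.63) led. The median of the members was 0.21 in total mRNA against −0.02 over all genes, and 0.04 with the LTF_GG pair added by its headers.

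In the dark no member was called between the genotypes in total mRNA or in polysome RNA, where 0.00515% of all genes tested were called. The unadjusted p was under 0.05 for 6.12% of the members in total mRNA and for 0% in polysome RNA, and DESeq2 called none. AT5G54940 was at 464 CPM in the K48M total library and at 209 and 258 CPM in Col-0 (log2 0.86 ± 0.30, adjusted p = 0.468), but at 442 and 265 against 350 and 337 CPM in polysome RNA (0.01 ± 0.25). AT1G66070 (0.99 ± 0.32, adjusted p = 0.449) and AT2G45730 (−1.18 ± 0.30, adjusted p = 0.385), whose text names an eIF3 gamma subunit and which is related to a tRNA methyltransferase subunit, had larger values in total mRNA. AT1G76720 had the largest, −1.71 ± 1.05 from 6 to 30 reads in the 3 libraries. AT1G76820 had −1.02 ± 0.65. In polysome RNA the largest values were those of AT5G01940 (−0.87 ± 1.12), AT1G53900 (0.41 ± 0.36) and EIF3B-1 (0.39 ± 0.19), and 38 of 49 members (77.6%) had an interval within 1 in either direction, against 61.5% of all genes.

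Polysome RNA and total mRNA differed for a few members, and the eIF5B genes stood out by size. AT1G76810 was at 63.7 and 63.8 CPM in Col-0 total mRNA in the dark and at 422 and 139 CPM in the polysome RNA, a log2 difference of 2.00 ± 0.48 (adjusted p = 0.049). Its difference was 1.44 ± 0.47 in submerged Col-0 (0.11), 1.99 ± 0.63 in dark K48M (0.0768) and 1.63 ± 0.62 in submerged K48M (0.149). The polysome library was higher in 6 of 6 pairs within a set, by 2.56 and 2.72 in the ST_FR pairs of Col-0 and by 0.82 and 1.12 in the LTF_GG pairs. So the sign was shared and the size was not. In the column headers the ST_FR polysome libraries carry another lane tag than the ST_FR total libraries, while LTF_GG libraries share a tag. Fraction and lane therefore cannot be told apart in ST_FR, the set that holds the K48M total libraries of the fit. Without the Col-0 polysome dark library of replicate 1, which had the ribosomal RNA share of 28.9%, the dark Col-0 difference of AT1G76810 was 1.26 (adjusted p = 0.484). Its submerged Col-0 difference was 0.66, not called, without the total submergence library of replicate 1 and 2.78 (0.000689) without that of replicate 2. AT1G76820 was also higher in polysome RNA in 6 of 6 pairs. It was called in dark K48M, at 2.68 CPM in total and 22.8 and 18.1 CPM in polysome RNA (2.96 ± 0.62, adjusted p = 0.0237). AT1G76720 had values from 1.31 to 3.13, none called. The fourth gene, AT1G21160, had −0.10 to 0.60.

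For eIF5 the gene AT1G77840 was higher on polysomes in submerged Col-0, at 76.1 and 55.0 CPM against 27.7 and 35.2 CPM (1.02 ± 0.23, adjusted p = 0.0394), and in dark K48M, at 71.3 and 68.2 CPM against 33.8 CPM (1.16 ± 0.30, adjusted p = 0.0437). EIF3K was higher in dark K48M, at 302 and 156 CPM against 116 CPM (1.31 ± 0.33, adjusted p = 0.0394). EIF3A, the largest eIF3 subunit, had 1.25 ± 0.34, 0.90 ± 0.34, 1.28 ± 0.44 and 1.16 ± 0.44 in dark and submerged Col-0 and dark and submerged K48M, with adjusted p-values of 0.0733 to 0.148. Its dark Col-0 value was 0.56 (adjusted p = 0.649) without the polysome library of replicate 1 and 1.80 (0.0254) without that of replicate 2. On the other side the eIF2A gene AT1G73180 had −0.89 ± 0.30, −1.01 ± 0.29, −1.15 ± 0.35 and −0.98 ± 0.35, with adjusted p-values of 0.0669 to 0.129. It was lower in polysome RNA in 6 of 6 pairs, by 0.35 to 1.75. For EIF3K the log2 values of the ST_FR pairs were 1.08 and 0.77 in dark and submerged Col-0 and 1.38 and 0.42 in K48M. In the LTF_GG pairs of Col-0 they were 0.19 and 0.01. The size for EIF3K was thus not shared by the sets, and in ST_FR fraction and lane cannot be told apart.

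Called members numbered 1 in dark Col-0, 1 in submerged Col-0, 3 in dark K48M and 0 in submerged K48M, each call toward polysomes. Of all genes tested 2.38% were called in dark Col-0 (1.54% higher, 0.839% lower), 2.39% in submerged Col-0 (1.11% higher, 1.28% lower), 5.25% in dark K48M (2.80% higher, 2.45% lower) and 2.80% in submerged K48M (1.23% higher, 1.57% lower). DESeq2 called 1 member in submerged K48M, and 18.4% of the members had an unadjusted p under 0.05 there. Without the set term 0 members and 0 genes in all were called in each of these 4 comparisons. Adding the LTF_GG pair by its headers lowered EIF3K to 0.54 (adjusted p = 0.404) and AT1G77840 to 0.58 (0.26) in dark K48M. AT1G76820 stayed called there at 2.69 (0.0127). In submerged Col-0 AT1G77840 had 1.07 in the same fit, no longer called (0.143). Over single libraries left out, its submerged Col-0 value ran from 0.71 to 1.42, and the call was not kept in each of these fits. Leaving out the Col-0 total submergence library of replicate 2 raised the count in submerged Col-0 to 12 members and 3076 genes. Within a set, 11 of 49 members (22.4%) were higher in polysome RNA in each of 6 pairs and 4 (8.16%) were lower, against 15.6% and 15.5% of all genes tested.

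**Figure D5:**
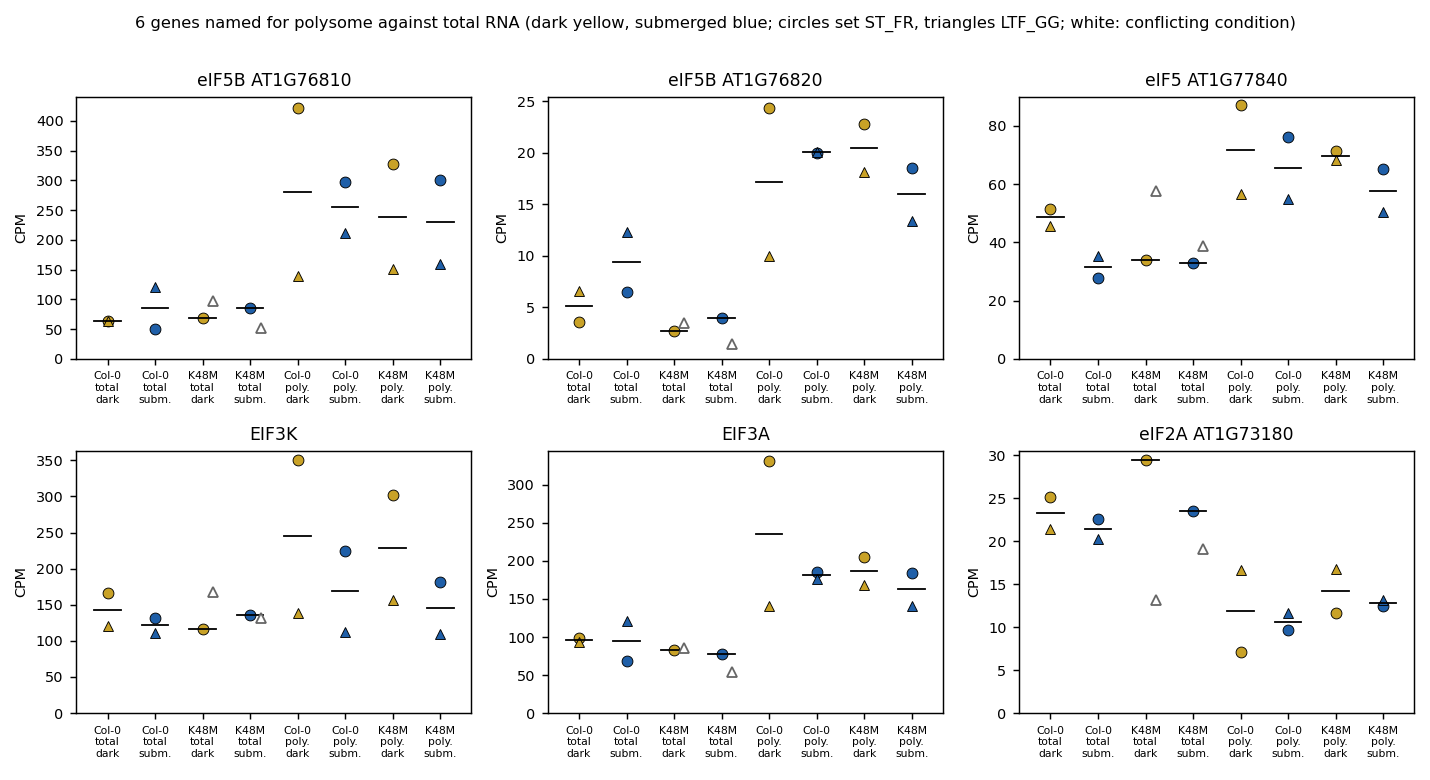
Level in CPM (y axis, from 0, scaled to each gene) of the eIF5B genes AT1G76810 and AT1G76820, the eIF5 gene AT1G77840, EIF3K, EIF3A and the eIF2A gene AT1G73180 in each library of the 8 groups (x axis), with colours and symbols as for the eIF1 genes. Polysome groups, at the right of each panel, are higher than total groups for AT1G76810 (139 to 422 against 50.1 to 120 CPM) and, outside the libraries of conflicting condition, lower for AT1G73180 (7.14 to 16.8 against 20.3 to 29.4 CPM).

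With the eIF5B genes included, longer member transcripts tended to have the larger polysome values. Across the 49 tested members the log2 polysome-to-total difference correlated with the log2 transcript length at r = 0.48, 0.48, 0.52 and 0.47 (rho = 0.30, 0.42, 0.41 and 0.28) in dark and submerged Col-0 and dark and submerged K48M. Over all 19436 genes tested r was −0.05, 0.06, −0.03 and 0.04. The 4 eIF5B genes have the longest models of the set and share sequence. Without them r was 0.20, 0.29, 0.27 and 0.28 (rho = 0.13, 0.29, 0.26 and 0.15) over 45 members. These are descriptions over genes of the same libraries, which are not independent points.

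The shift of polysome loading under submergence (log2 response in polysome RNA less that in total mRNA) was called for no member in Col-0 or K48M, and for 0% of all genes tested. The unadjusted p was under 0.05 for 0% and 2.04% of the members, against 1.49% and 2.96% of all genes, and DESeq2 called none. AT5G54940 had −0.26 ± 0.35 in Col-0, with an interval from −1.0 to 0.49, and 0.18 ± 0.42 in K48M, with an interval from −0.73 to 1.09. The largest value in Col-0 was that of the DENR relative AT5G11900, 0.85 ± 0.49, and in K48M those of AT1G76720 (−1.59 ± 1.29) and EIF2-A2 (−1.15 ± 0.49). The median of the members was −0.24 in K48M against 0.01 over all genes, and −0.07 with the LTF_GG pair added by its headers. In Col-0 it was −0.02, and it went to 0.26 without the total submergence library of replicate 2.

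For i4g1-2 and 4A-15, lines of the second experiment whose genotypes the labels give only by these names, only the authors' folds were used, given per transcript model with no error. The authors' deposited table lists 8391 models by a rule not given in the sources used here, 12 of them from 11 member loci. Over all its models the authors' deposited table has medians of −0.13, −0.10, −0.08 and −0.06 in total mRNA of Col-0, K48M, i4g1-2 and 4A-15, but of −0.29, −1.51, −0.94 and −1.01 in polysome RNA, so its polysome folds have to be read against these. For AT5G54940.2 the authors' deposited table gives log2 folds of submergence over control of 1.08, 0.76, 1.44 and 1.09 in total mRNA of Col-0, K48M, i4g1-2 and 4A-15. In polysome RNA the authors' deposited table gives 0.96, 0.05, 0.30 and 0.34 for the same lines. For EIF3G2 all 8 folds in the authors' deposited table are negative, from −0.69 in Col-0 total to −2.63 in K48M polysome RNA. In K48M polysome RNA 85.1% of all models in the authors' deposited table are negative, with quartiles of −2.05 and −0.49. The values of FUG1 (−1.70) and EIF3K (−1.79) in the authors' deposited table lie within these quartiles, and those of EIF3G2 and of ELF5A-2 model 2 (−3.51) below them. In the counts analysed here the K48M polysome responses of FUG1, EIF3K and ELF5A-2 were −0.34 ± 0.22, −0.62 ± 0.25 and −0.14 ± 0.28, from the sum over models. The Col-0 and K48M polysome values of AT5G54940 were 1.03 and 1.07. For EIF3B-1 model 1 the authors' deposited table gives −1.63, −1.38, 1.66 and −0.73 in polysome RNA of Col-0, K48M, i4g1-2 and 4A-15. Its Col-0 value is opposite in sign to the response given above for the sum over models, and 0.903% of the gene's reads were unique.

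Other genes of the translation machinery are given for comparison. Of the 10 loci left out by the rule, EIF4A-2 fell in Col-0 total mRNA (log2 −0.68 ± 0.19, adjusted p = 0.0347), and EIF4E fell in Col-0 polysome RNA (−0.66 ± 0.19, adjusted p = 0.0378) and was higher on polysomes than in total mRNA in dark Col-0 (0.80 ± 0.19, adjusted p = 0.0473). No other of these loci was called in the 14 comparisons. The 3 tested of 8 poly(A)-binding protein genes had none called, with medians of −0.25, −0.36, −0.04 and −0.30 in total mRNA of Col-0 and K48M and polysome RNA of Col-0 and K48M. Of 32 tested elongation and release factor genes 1 rose in each of the 4 responses and 2 fell in K48M polysome RNA, with medians from −0.08 to −0.04. Among them AT1G69410, which its text names an elongation factor 5A and which is a paralog of ELF5A-2, rose in Col-0 total mRNA (0.85 ± 0.23, adjusted p = 0.0279) and is named here because of that value, which was known when it was picked.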

How the data were processed

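Read counts per transcript model were deposited by the authors as whole numbers for 16 libraries of the first experiment, as total and as unique gene reads of trimmed read pairs, per the file headers. According to the submitters' processing notes the reads were placed on TAIR10. No source used here gives the aligner or strandedness, so reads of a gene and an antisense partner cannot be told apart. The log2 folds of submergence over control that the authors deposited were printed as given. For the second experiment counts were not used here. Models were summed to loci, and 11 rows without identifier (at most 0.00839% of a library's reads) were left out. All 58 members matched RefSeq's gene table (assembly TAIR10.1) by locus code.

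Members and lists were chosen with earlier results of these data known. The test was edgeR's (version 4.0.16, R 4.3.3; glmQLFit and glmQLFTest, TMM factors from 0.561 to 1.311, filterByExpr with a minimum count of 10 and a minimum total of 15) on 14 libraries with a term per group and per library set, 5 residual degrees of freedom and a biological coefficient of variation of 18.8%. Benjamini-Hochberg adjustment ran over 19436 genes, and an adjusted p under 0.05 was a call. The set term was kept because same-set libraries deviated together in each of 15 pairs of groups (r from 0.319 to 0.637 over 19436 genes). The titles pair libraries only by set. Per comparison, called members and, with fewer than 5 called, the 5 with the largest absolute log2 fold change were named from the results, along with the most abundant member of each factor. Alternatives were RLE scaling, DESeq2 1.42.0, no filter, no set term, all 16 libraries by header or by title, unique reads, and each library left out. Each of the 14 libraries in the fit, and the pair left out, held 3.749 M to 6.769 M gene reads.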

Additional observations from a re-analysis of the deposited data

How the results depend on the processing

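Counts of called members move with the calls over all genes, which stand in brackets here. They are given beside the reported 1, 0, 1 and 2 (responses in total mRNA of Col-0 and K48M, then in polysome RNA of Col-0 and K48M) and 1, 1, 3 and 0 (polysome minus total in dark Col-0, submerged Col-0, dark K48M and submerged K48M). Without the replicate block, the fit that ignores the pairing of libraries by set, all 8 counts were 0 (467, 54, 365 and 507 genes in the responses and 0 in each comparison of fractions, against 2338, 1006, 2079 and 2647 and then 462, 465, 1021 and 544 reported). With all 16 libraries by title the counts were 0, 0, 0 and 0 and then 0, 0, 1 and 0 (0 genes in the first 6 and then 216 and 178), and by header 1, 0, 0 and 1 and then 0, 0, 2 and 2 (1475, 1653, 1212, 1567, 2, 35, 831 and 739 genes). DESeq2 gave 1 in the K48M polysome response (2252 genes) and 4, 1, 5 and 1 between fractions (862, 851, 1232 and 739), and no filter gave 3, 1, 6 and 1 between fractions (689, 843, 1455 and 848). Unique reads gave 0 in the Col-0 total and 0 in the Col-0 polysome response (1824 and 1617 genes) and 2, 2 and 5 in the first 3 comparisons of fractions (419, 749 and 1072). RLE scaling changed no count by over 1.5 times. Leaving out each library in turn gave 0 to 4, 0 to 0, 0 to 2 and 0 to 3 members in the responses and 0 to 5, 0 to 12, 0 to 11 and 0 to 9 between fractions. The other 6 comparisons had 0 called members under every alternative run. The cause of these changes was not tested.

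Leaving out any of the 4 Col-0 polysome libraries ended the call of AT5G54940 in Col-0 polysome RNA (adjusted p from 0.0706 to 0.124), and so did leaving out Col-0 total dark replicate 1 in Col-0 total mRNA (0.0814) and 2 of the 4 K48M polysome libraries in K48M polysome RNA (0.118 and 0.177), while its log2 fold change stayed between 0.82 and 1.64 in these 3 responses. Without Col-0 total submergence replicate 1 or 2, the Col-0 total response had 4 and 3 called members (3010 and 2298 genes), and the comparisons of fractions had 5 and 5 (1734 and 1739), 0 and 12 (257 and 3076), 11 and 11 (3277 and 3276), and 9 and 9 (2378 and 2390). A K48M comparison gave no value without a lone K48M total library it needs. Some uncalled values changed sign: AT1G66070 to 0.10 (Col-0 loading) and EIF3B-1 to −0.09 (dark polysome K48M minus Col-0) with unique reads, and, over single libraries left out, AT5G01940 from −0.11 to 1.39 and from 0.00 to 5.67 (Col-0 total and polysome responses) and from −1.48 to 4.14 (dark polysome K48M minus Col-0), AT1G76720 from −0.07 to 2.60 (total response difference), AT1G76820 from −1.40 to 0.01 (polysome response difference) and AT1G76810 from −1.26 to 0.85 (Col-0 loading). Depth limits EIF3G2, AT5G01940 and AT1G76720, with at most 35, 21 and 62 reads in a library. It also limits AT1G76820, with 6 to 112 reads, whose call in dark K48M rests on 1 total library at 2.68 CPM.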
